A study of Homo sapiens with 12 samples.

Results

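BCL3 was knocked down by siRNA in U87 cells that received only DMSO, the solvent of the drug used in other arms of the study. U87 is an established human glioma line. The comparison took the 3 arrays of cells transfected with BCL3 siRNA and given DMSO against the 3 arrays of cells transfected with control siRNA and given DMSO, 6 of the 12 arrays of the series. The other 6 arrays came from cells with the same siRNAs and temozolomide (TMZ), the DNA-alkylating drug of glioblastoma treatment, for 24 h at 100 µM. They entered the fit for its estimate of spread and served as a second reading of the knockdown. All groups were transfected, and all siRNA of the knockdown carries the same label (targeting BCL3, from Dharmacon), so lowering of BCL3 and any other effect of that reagent cannot be told apart. Nothing in the labels states whether the 3 arrays of a group were separate cultures. The p-values therefore measure only the spread between these arrays, which may be technical.

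BCL3 belongs to the I-kappa-B family but is atypical in it. It works in the nucleus, where it binds DNA-bound homodimers of the NF-kB subunits p50 and p52 and can switch them between repression and activation of transcription. In cancer cells it is known as a regulator of cytokine genes, of survival genes and of the entry into the cell cycle.

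Levels are given as normalised log2 intensities after background correction, with an offset of 16 that shrinks the changes of dim probes. Of 47320 probes, 18105 passed the detection filter (p under 0.01 on 3 or more of the 12 arrays), and 14270 of these carried a gene symbol. The brightest probe stood for each of 10686 genes. A gene is said to have risen or fallen when its Benjamini-Hochberg adjusted p-value, over all 10686 genes in the limma fit, was under 0.05. Log2 fold changes are BCL3 siRNA over control siRNA with limma's standard error (SE), with n = 3 arrays per group throughout.

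The targeted transcript was lower on every knockdown array. BCL3 read 7.47, 7.39 and 7.25 on the control arrays and 6.41, 6.28 and 6.46 on the BCL3 siRNA arrays. The groups were apart (log2 fold change -0.98, SE 0.07, adjusted p = 3.04e-07), and the probe was still detected on all 3 BCL3 siRNA arrays. On the arrays with TMZ the same contrast gave -0.76.

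Arrays of one group correlated between 0.995 and 0.9968 across probes. Mean raw intensity was 265.9 to 317.5 on the control arrays and 229.6 to 258 on the BCL3 siRNA arrays, so the groups also differed in overall brightness. Between 16381 and 17404 probes were detected on the control arrays and between 16439 and 16532 on the BCL3 siRNA arrays. When this brightness was added to the fit as a covariate, 1128 genes rose and 1282 fell.

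Without that covariate 2213 genes rose and 2149 fell, together 40.8% of the genes tested. The typical change was small: the median size among called genes was 0.35 on the log2 scale, with a median SE of 0.078 over all genes. Rises of at least 1.5-fold numbered 246 (2.3%) and falls 408 (3.82%). At 2-fold, 23 genes rose (0.215%) and 82 fell (0.767%), so large changes were mostly falls. Falls outnumbered rises at 2-fold under every alternative run, but the counts depended on background correction, offset and source: 6 and 26 with no background correction, 10 and 40 with normexp and an offset of 50, 13 and 44 with an offset of 50 and 55 and 153 with the authors' intensities. Median scaling over all probes gave 6 and 273. With genes split by level into 4 equal bins, 24.9% were called in the dimmest bin, 44.1% and 51.5% in the next ones and 42.9% in the brightest. The split of rises and falls rested on the scaling. Median scaling over the probes detected on all arrays gave 3141 rises and 1673 falls (65.2% rises against 50.7%). Median scaling over all probes, most of which lie in the background, put the median log2 fold change of all genes at -0.26 and gave 244 rises and 4758 falls (4.88% rises). Of the 129 genes whose values are given here, 117 were called, and 0 of these turned direction under that scaling, but calls were lost. It left 0 risen genes in the lists of replication, chemokines, NF-kB and protein phosphatase 2A. POLE3, CXCL10, NFKB1 and PPP2CB, named below as risen, thus did not pass as rises. They are not the only ones, since further lists lost rises. The haem, iron and NRF2 list kept 3 rises beside 11 with quantile normalization. The G1 list kept 2 beside 4, and the coagulation list 1 beside 4. The balance of the lists shifted too: each of the 32 lists with at least 8 measured genes then held more falls than rises. The list counts below therefore hold for quantile normalization and, where given, for the named alternative.

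**Figure D1:**
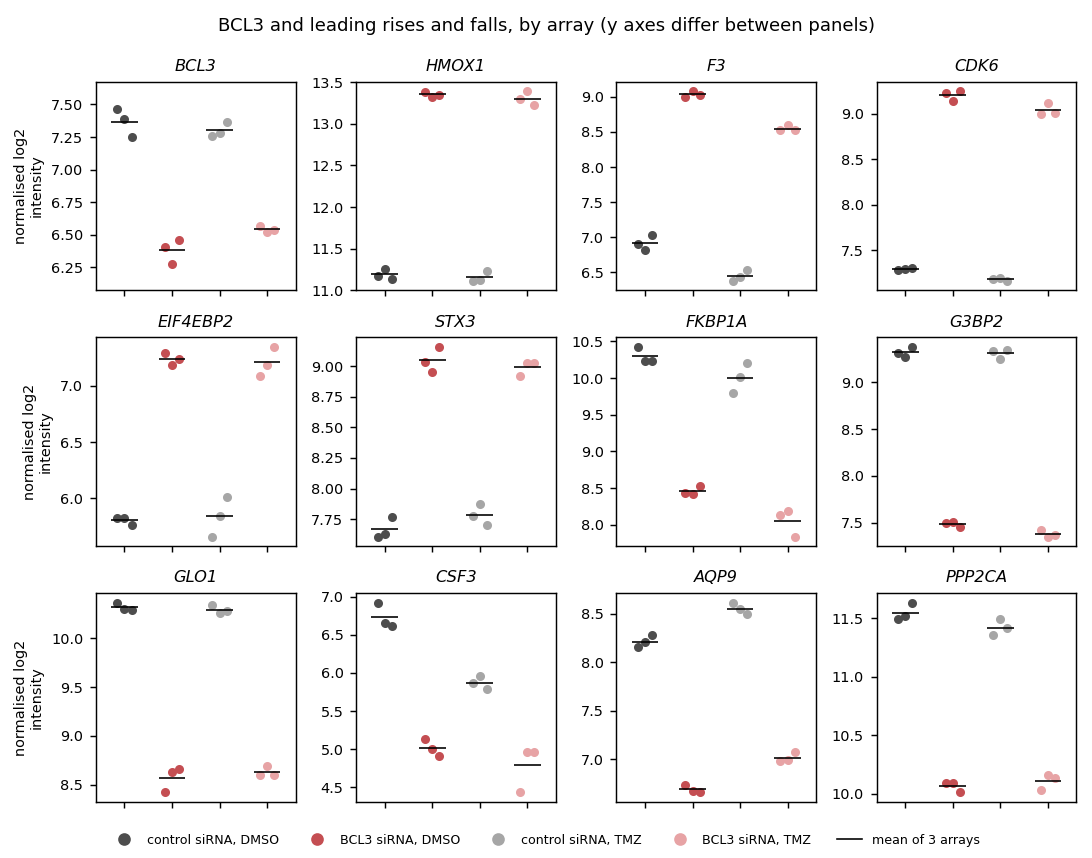
Normalised log2 intensity (y axis) of BCL3 and 11 of the most changed genes on each of the 12 arrays (points), by siRNA and treatment, with the mean of the 3 arrays of a group as a line; the y axes differ between panels. In every panel the 3 BCL3 siRNA arrays with DMSO lie apart from the 3 control siRNA arrays with DMSO, and the TMZ arrays show the same direction. The DMSO groups did not overlap for 50% of all genes tested.

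The 25 largest rises with no overlap between groups ran from 2.16 to 0.99 on the log2 scale, with SEs of 0.05 to 0.11 and adjusted p-values of at most 1.1e-05. Lack of overlap alone was common: it held for 5347 of the 10686 genes tested (50%), rises and falls together. HMOX1, the enzyme that degrades haem to biliverdin, carbon monoxide and iron, led them. HMOX1 read 11.18, 11.26 and 11.14 on the control arrays and 13.39, 13.33 and 13.35 on the BCL3 siRNA arrays. The second was F3, tissue factor, the membrane protein that starts blood coagulation. F3 read 6.90, 6.82 and 7.04 on the control arrays and 9.00, 9.08 and 9.03 on the BCL3 siRNA arrays. The third was CDK6, the kinase that acts with D-type cyclins on the retinoblastoma protein, at 7.28, 7.30 and 7.30 against 9.23, 9.13 and 9.25. In all 3 genes the gap between groups was many times the spread within them. The log2 fold changes were 2.16 for HMOX1 (SE 0.06), 2.12 for F3 (SE 0.07) and 1.91 for CDK6 (SE 0.06). A second F3 probe gave 1.63. A larger change came from a probe that did not stand for its gene: for the collagen chain COL1A2 the dimmer probe rose by 2.56 (SE 0.06, adjusted p = 2.09e-11 over probes), while the brighter one rose by 0.50 (SE 0.09).

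The other large rises fell into several roles. EIF4EBP2, a repressor that binds the cap-binding translation factor EIF4E, rose by 1.43 (SE 0.09), and STX3, a syntaxin of fusion at the plasma membrane, by 1.38 (SE 0.07). Signalling genes were DUSP5, a nuclear phosphatase of ERK (1.22, SE 0.05), and P2RY11, a receptor for ATP (1.06, SE 0.11). The deubiquitinase YOD1 rose by 1.27 and the elongation factor ELL2 by 1.13. Among genes of metabolism were GPAT3, an acyltransferase of triglyceride synthesis (1.08), the glucose transporter SLC2A1 (1.07) and SLC25A13, the mitochondrial aspartate and glutamate carrier (1.01). Adhesion and matrix genes among the 25 were the metalloproteinase ADAM19 (1.13), the collagen hydroxylase P3H2 (1.03), the integrin activator FERMT2 (1.01) and the matrilin MATN2 (0.99). A second MATN2 probe read 0.00 and did not pass, so the rise of MATN2 was seen by 1 of its probes only.

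The 25 largest falls ran from -1.84 to -1.28, with SEs of 0.05 to 0.14 and adjusted p-values of at most 1.41e-05. FKBP1A, the small prolyl isomerase that binds FK506 and rapamycin, read 10.42, 10.23 and 10.23 on the control arrays and 8.43, 8.41 and 8.53 on the BCL3 siRNA arrays. Its log2 fold change was -1.84 (SE 0.11). Of its 3 other probes, 2 gave -1.81 and -1.93, and the last rose by 0.18. G3BP2, an RNA-binding protein of stress granules, read 9.32, 9.27 and 9.38 against 7.50, 7.51 and 7.46, a log2 fold change of -1.83 (SE 0.05). Its other probes gave -2.16 and -2.11, so all of its measured probes fell. GLO1, the glyoxalase that removes methylglyoxal, read 10.37, 10.30 and 10.30 against 8.42, 8.63 and 8.66, a log2 fold change of -1.75 (SE 0.07).

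Among the other large falls were genes of membranes and lysosomes. The water and glycerol channel AQP9 fell by 1.53 (SE 0.06), the retromer subunit VPS26A by 1.35 (SE 0.06), and the lysosomal acid lipase LIPA by 1.28 (SE 0.05). GPNMB, a transmembrane glycoprotein, fell by 1.30 (SE 0.14) and was detected on 2 of the 3 BCL3 siRNA arrays. Enzymes that modify lipids or proteins of membranes were ST8SIA5, a sialyltransferase of gangliosides (-1.32), ZDHHC13, a palmitoyltransferase (-1.29), and PIGO of GPI anchor synthesis (-1.28). Signalling genes among the 25 were PRKAR1A, which holds protein kinase A inactive until cAMP binds (-1.43), KCTD12, an auxiliary subunit of GABA-B receptors (-1.37), and the receptor BMPR2 (-1.28). The haem-binding protein HEBP1 fell by 1.44 (SE 0.05). ABCF2, an ABC protein with no membrane domain, fell by 1.55, and its second probe fell by 0.46. TRIM5, a restriction factor of retroviral capsids, fell by 1.47, while its other probes gave -0.91 and -0.25, the last of which did not pass.

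The arrays with TMZ gave a second reading, from arrays that the DMSO contrast did not use, although both contrasts share the fit's estimate of spread. Of the 23 genes that rose at least 2-fold under DMSO, 22 also rose under TMZ, where 18.6% of all genes rose. All 82 that fell at least 2-fold under DMSO also fell under TMZ, where 20.2% of all genes fell. The exception among the rises was RNA28SN5, a ribosomal RNA gene, which read 8.81, 8.50 and 9.80 on the control arrays and 9.79, 10.33 and 10.36 on the BCL3 siRNA arrays. Its groups overlapped under DMSO (log2 fold change 1.12, SE 0.30, adjusted p = 0.00901), its call was lost with mean raw intensity as a covariate (0.38, adjusted p = 0.439), and under TMZ it read 0.49 (adjusted p = 0.215).

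**Figure D2:**
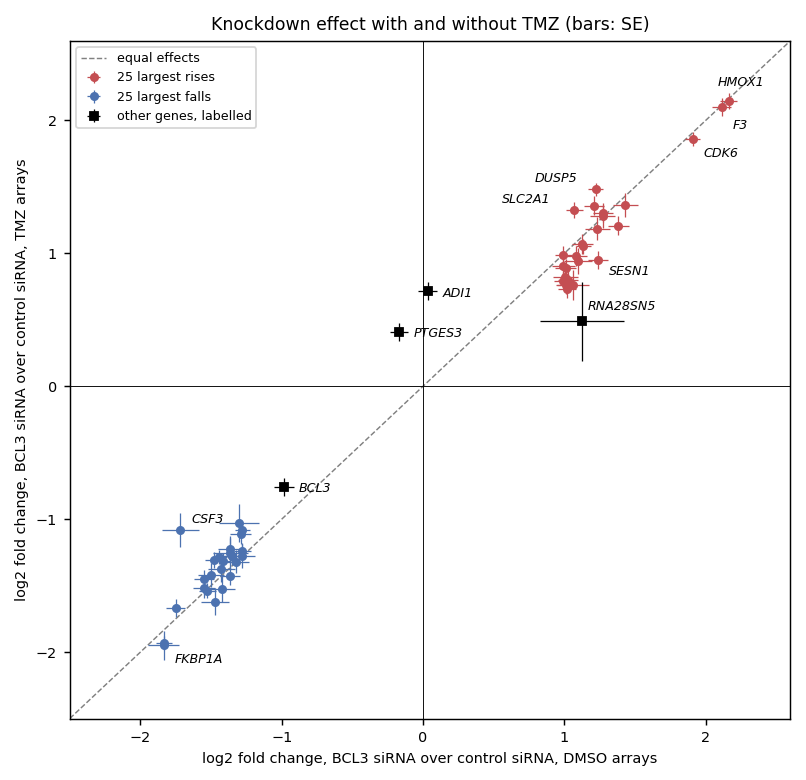
Log2 fold change of BCL3 siRNA over control siRNA on the TMZ arrays (y axis) against that on the DMSO arrays (x axis) for the 25 largest rises and 25 largest falls under DMSO, with SE bars, the line of equal effects and 4 other labelled genes. The 25 rises lie between 0.73 and 2.15 and the 25 falls between -1.95 and -1.03 on the TMZ axis.

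The difference between the knockdown effects under TMZ and DMSO was called for 0 of 10686 genes by limma, with 718 genes at an unadjusted p-value under 0.05. The lowest p-values belonged to ADI1, an enzyme of methionine salvage, and PTGES3, a co-chaperone of HSP90. ADI1 read 4.94, 5.04 and 4.89 against 5.03, 5.04 and 4.91 under DMSO, a log2 fold change of 0.03, and 0.72 under TMZ (difference 0.68, SE 0.09, adjusted p = 0.0775). PTGES3 gave -0.17 under DMSO and 0.41 under TMZ (difference 0.58, SE 0.09, adjusted p = 0.145).

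**Figure D3:**
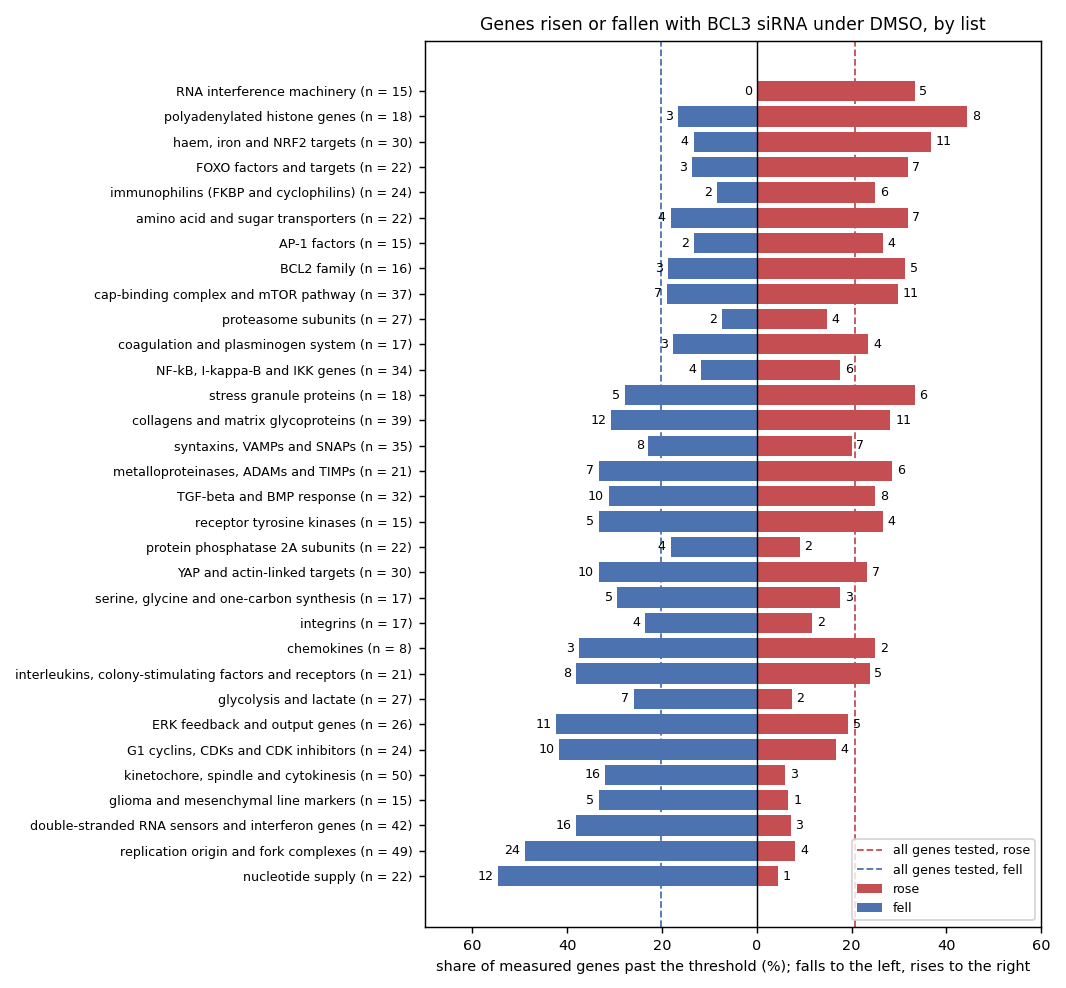
Share of the measured genes of each list (y axis, with the number measured) that rose (right) or fell (left) with BCL3 siRNA under DMSO, in percent on the x axis, with the number of genes at each bar; dashed lines give the shares over all genes tested, 20.7% for rises and 20.1% for falls. Nucleotide supply, with 12 of 22 fallen, stands at the bottom and RNA interference machinery, with 5 of 15 risen, at the top; under median scaling over probes detected on all arrays, rises outnumbered falls in the lists of glycolysis, YAP targets, TGF-beta response, chemokines, interleukins, serine synthesis, integrins, syntaxins, matrix, protein phosphatase 2A and glioma markers, where falls outnumber rises here.

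About as many genes that copy DNA fell after BCL3 knockdown as did not. Before a cell can replicate, the origin recognition complex loads the MCM helicase, and primase, polymerases and the clamp loader then follow at the fork. Of 49 measured genes of these complexes 24 fell and 4 rose, beside 20.1% falls and 20.7% rises over all genes, and the list's median log2 fold change was -0.21 against 0.01 over all genes. With median scaling the counts were 19 and 7, and with mean raw intensity as a covariate 16 and 1. Falls outnumbered rises in all 3 fits. Relative to the median of all genes, the list's median was -0.22 with quantile normalization, -0.20 with median scaling and -0.21 with median scaling over all probes.

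The falls were spread over the machinery, in groups of subunits formed after the values were seen. In the hexameric helicase, MCM2 (-0.32), MCM3 (-0.33), MCM4 (-0.27), MCM5 (-0.28) and MCM6 (-0.54) fell, and MCM7 read -0.06 (adjusted p = 0.537). MCM6 read 10.32, 10.29 and 10.21 on the control arrays and 9.78, 9.73 and 9.70 on the BCL3 siRNA arrays. Its groups did not overlap, as in 50% of the genes tested. MCM4 did not pass without control siRNA replicate 1 (-0.21, adjusted p = 0.0786) or with mean raw intensity as a covariate (-0.35, adjusted p = 0.051). Of 12 polymerase and primase subunits 7 fell and 1 rose. POLE2 of DNA polymerase epsilon fell by 0.73 (SE 0.08), POLE4 of the same enzyme by 0.53 (SE 0.06), and POLD1, the catalytic subunit of polymerase delta, by 0.49 (SE 0.08). POLE3, a histone-fold partner of POLE4, rose by 0.31 (SE 0.05). The sliding clamp PCNA read -0.03 (adjusted p = 0.735). RFC3 of the clamp loader fell by 0.77 (SE 0.09), but its other probes disagreed with each other at -0.52 and 0.45, both past the threshold.

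Of 22 measured genes that supply nucleotides and thymidylate 12 fell, 1 rose and 9 did not pass, beside 20.1% falls and 20.7% rises over all genes. RRM2, the regulated subunit of ribonucleotide reductase, read 8.92, 9.04 and 8.73 on the control arrays and 7.93, 7.73 and 7.62 on the BCL3 siRNA arrays. Its log2 fold change was -1.14 (SE 0.15, adjusted p = 7.17e-05). RRM2B, the p53-inducible form of that subunit, fell by 0.84 (SE 0.12), although its second probe read 0.01. Thymidylate synthase TYMS fell by 0.42 (SE 0.06) and thymidine kinase TK1 by 0.41 (SE 0.06). NME1, a nucleoside diphosphate kinase, did not pass by its brightest probe (0.10), while its other probes rose by 0.47 and 0.45.

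Regulators of the G1 phase changed in both directions. Of 24 measured G1 cyclins, kinases, inhibitors and E2F genes 10 fell and 4 rose, beside 20.1% falls and 20.7% rises over all genes. With median scaling 8 fell and 5 rose. CDC25A, the phosphatase that activates CDK2, read 7.88, 7.70 and 7.75 against 6.45, 6.60 and 6.65, a log2 fold change of -1.21 (SE 0.07). E2F2, an activator of replication genes, fell by 0.73 (SE 0.09), and E2F5, a partner of repressive complexes, by 0.63 (SE 0.07). SKP2, the F-box protein that directs the inhibitor p27 to degradation, fell by 0.55 (SE 0.05). On the other side stood CDK6, described above, CDKN1A, the inhibitor p21 (0.51, SE 0.05), and E2F4 of repressive complexes (0.40, SE 0.06). CDK4, the kinase that shares the cyclins of CDK6, read -0.09 (adjusted p = 0.248).

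Among mitotic genes a few members fell strongly and many did not pass. Of 50 measured genes of the kinetochore, spindle and cytokinesis 16 fell and 3 rose, beside 20.1% falls and 20.7% rises over all genes. The list's median was -0.12, and with median scaling 13 fell and 7 rose. KIF20A, a kinesin of cytokinesis, read 9.41, 9.29 and 9.47 on the control arrays and 8.38, 8.24 and 8.17 on the BCL3 siRNA arrays, a log2 fold change of -1.13 (SE 0.07). MKI67, which coats mitotic chromosomes and is the standard proliferation marker, read 6.54, 6.35 and 6.28 against 5.34, 5.16 and 5.42 (-1.08, SE 0.08). BIRC5, the survivin subunit of the chromosomal passenger complex, read 9.27, 9.24 and 9.22 against 8.29, 8.23 and 8.17 (-1.01, SE 0.06). RACGAP1 of the central spindle fell by 0.95 (SE 0.06), and KIF11, the kinesin that separates the poles, by 0.74 (SE 0.08). Against these, 5 measured genes of the spindle checkpoint, a group formed after the values were seen, lay between -0.14 and -0.02. In the limma fit 0 of them passed, with 1 at an unadjusted p-value under 0.05. These values are of the brightest probes. BUB3, which binds checkpoint kinases at the kinetochore, read -0.03 by that probe, and of its other probes one fell by 0.36 (adjusted p = 0.00314 over probes) and one read 0.06. Of 11 mitotic kinesins, a group formed in the same way, 4 fell.

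**Figure D4:**
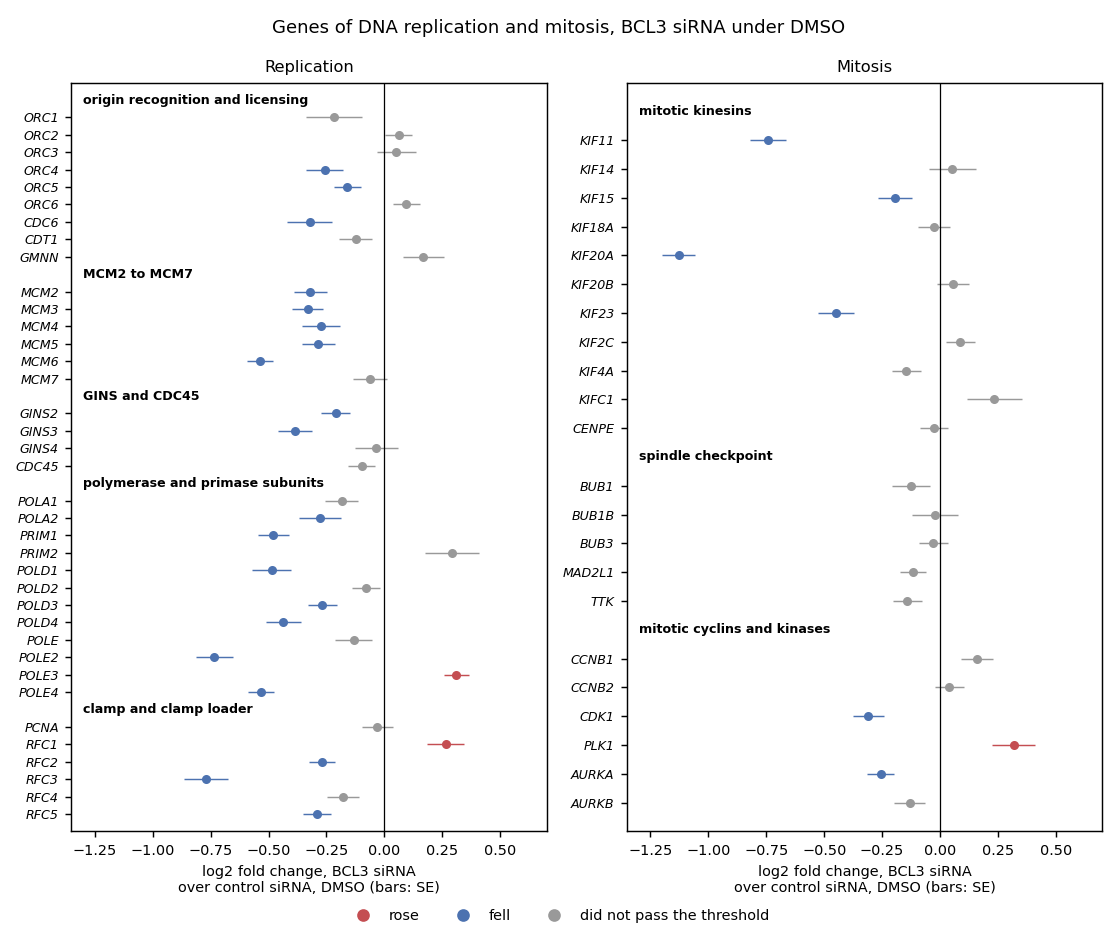
Log2 fold change of BCL3 siRNA over control siRNA under DMSO (x axis, bars are SE) for genes of DNA replication (left) and mitosis (right), grouped by complex and coloured by whether they rose, fell or did not pass. MCM2 to MCM6 lie between -0.54 and -0.27, KIF20A stands at -1.13, and the 5 spindle checkpoint genes lie near 0.

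Promoters of such genes carry well-known elements. The 4 shown belong to fallen genes of replication, G1 and mitosis that held a match, and were not taken in order of size. RFC3 and POLE2 fell more than MCM6. Each is the 250 bases before the start of the gene in RefSeq (GRCh38.p14), 5′ to 3′ on the gene's strand, with capitals marking the motif. In MCM6 and CDC25A the capitals mark an E2F element, searched as TTTGGCGC, TTTGGCGG or TTTCCCGC on both strands. In MKI67 and KIF11 they mark the cell cycle genes homology region (CHR), searched as TTTGAA on both strands. KIF20A, the largest mitotic fall, had no match to the CHR. MCM6 is at chr2:135876444-135876693 (minus strand), CDC25A at chr3:48188418-48188667 (minus), MKI67 at chr10:128126424-128126673 (minus) and KIF11 at chr10:92592880-92593129 (plus).
MCM6: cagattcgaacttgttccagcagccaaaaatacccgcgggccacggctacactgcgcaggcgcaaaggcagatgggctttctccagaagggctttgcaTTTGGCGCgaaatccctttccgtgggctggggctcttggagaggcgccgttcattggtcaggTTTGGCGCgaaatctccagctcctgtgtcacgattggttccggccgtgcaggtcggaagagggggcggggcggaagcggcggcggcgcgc
CDC25A: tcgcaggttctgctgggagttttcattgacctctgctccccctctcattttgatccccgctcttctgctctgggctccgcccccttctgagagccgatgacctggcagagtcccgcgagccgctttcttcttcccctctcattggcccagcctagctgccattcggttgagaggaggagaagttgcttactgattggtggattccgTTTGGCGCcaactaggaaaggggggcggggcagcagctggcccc
MKI67: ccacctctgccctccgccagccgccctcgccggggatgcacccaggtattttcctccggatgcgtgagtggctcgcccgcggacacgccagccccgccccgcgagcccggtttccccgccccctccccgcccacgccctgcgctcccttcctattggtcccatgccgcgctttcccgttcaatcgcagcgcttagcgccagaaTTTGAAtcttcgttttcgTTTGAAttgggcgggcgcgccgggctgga
KIF11: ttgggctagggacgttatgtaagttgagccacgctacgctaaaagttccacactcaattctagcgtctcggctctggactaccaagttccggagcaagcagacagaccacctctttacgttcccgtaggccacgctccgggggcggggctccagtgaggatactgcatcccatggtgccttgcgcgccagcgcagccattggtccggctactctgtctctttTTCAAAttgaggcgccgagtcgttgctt

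Over windows of 300 bases, which add the first 50 bases of each gene, 8684 of the 10686 tested genes had a promoter sequence. The E2F element lay in 9 of the 20 fallen replication genes with a sequence (45%), of 24 that fell, in 46.5% of all measured replication genes with a sequence, and in 4.86% of the genes tested. The CHR lay in 9 of the 10 fallen mitotic genes with a sequence, of 16 that fell, in 78% of all measured mitotic genes with a sequence, and in 10.1% of the genes tested. Both motifs were common in the full lists, and their shares among the fallen members were close to those. A match is a description of the letters and not a bound site.

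The cytokine genes changed in opposite directions, and falls were larger. Interleukins, colony-stimulating factors and chemokines are secreted signals, several of which are textbook targets of NF-kB. Over all genes 20.1% fell and 20.7% rose. Of 21 measured interleukin, colony-stimulating factor and receptor genes 8 fell and 5 rose, and of 8 measured chemokines 3 fell and 2 rose. Under median scaling these counts were 6 and 7, and 3 and 4, so neither list as a whole had a settled direction, while the members described next kept theirs. Many genes of both lists were not detected and were not tested.

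Among the ligands, CSF3, which drives neutrophil production, read 6.92, 6.65 and 6.62 on the control arrays and 5.14, 5.00 and 4.91 on the BCL3 siRNA arrays. Its log2 fold change was -1.72 (SE 0.13), with -1.17 by a second probe and -1.08 under TMZ. IL1B, an inflammatory cytokine made as an inactive precursor, read 9.72, 9.60 and 9.57 against 8.34, 8.37 and 8.09 (-1.37, SE 0.08). Its relative IL1A, which binds the same receptor, went the other way, from 6.15, 6.18 and 6.21 to 7.25, 7.21 and 7.07 (0.99, SE 0.06). Neither gene had overlapping groups, as was so for 50% of the genes tested, and under TMZ they read -1.23 and 0.99.

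Of the IL6 family, which signals through the shared receptor chain gp130, 3 ligands fell. IL6 read 8.41, 8.47 and 8.42 against 7.28, 7.49 and 7.14, and so fell by 1.13 (SE 0.11, adjusted p = 6.71e-06). IL11 read 8.42, 8.19 and 8.25 against 7.10, 7.70 and 7.70 (-0.79, SE 0.14), and LIF fell by 0.55 (SE 0.08). The chemokine CCL2, which attracts monocytes, read 6.09, 6.13 and 6.23 against 4.76, 4.85 and 5.20 (-1.21, SE 0.11) and was detected on 2 of the 3 BCL3 siRNA arrays. CXCL8, which attracts neutrophils, read 11.03, 10.88 and 10.81 against 10.19, 10.21 and 10.22 (-0.70, SE 0.08), with -0.79 by a second probe. CXCL10, an interferon-induced chemokine, rose by 0.39 (SE 0.08), and the receptor chain IL10RB rose by 0.57 (SE 0.07). In groups formed after the values were seen, the measured ligands had a median log2 fold change of -0.40 over 10 genes. The measured receptors had one of -0.08 over 11 genes, where 2 rose and 2 fell.

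**Figure D5:**
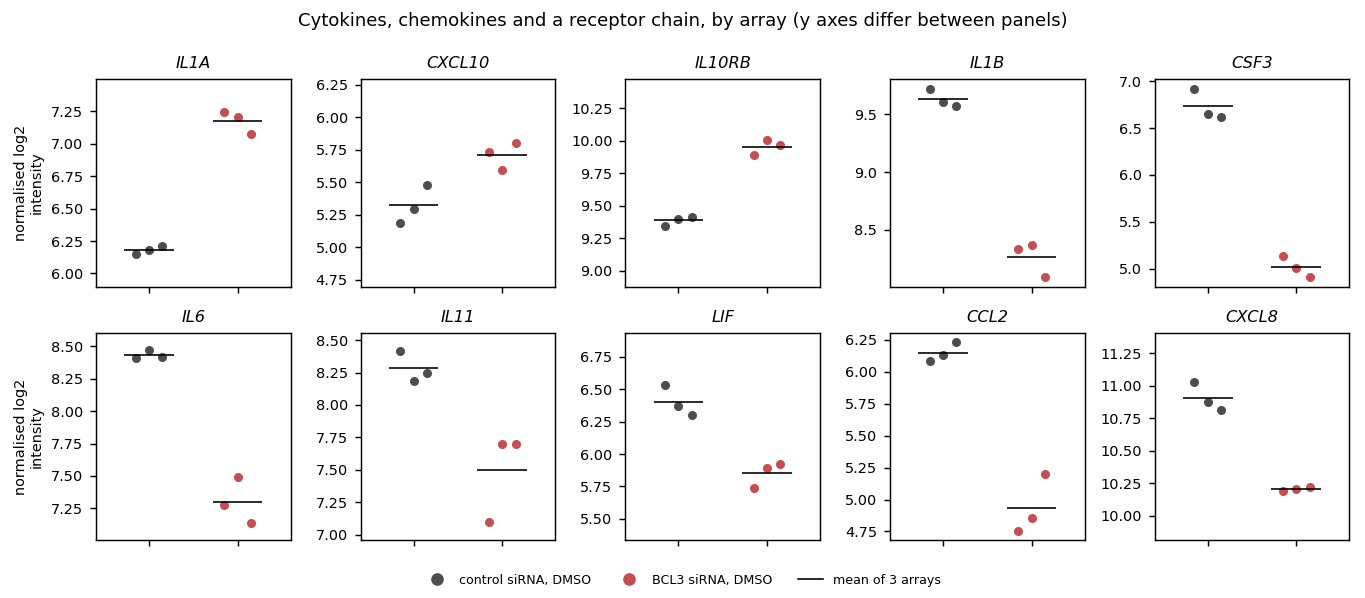
Normalised log2 intensity (y axis) of 10 cytokine, chemokine and receptor genes on the 3 control siRNA arrays and the 3 BCL3 siRNA arrays with DMSO (points, with the mean as a line); the y axes differ between panels. IL1A, CXCL10 and IL10RB lie higher on the BCL3 siRNA arrays, and IL1B, CSF3, IL6, IL11, LIF, CCL2 and CXCL8 lie lower.

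The transcripts of other NF-kB and I-kappa-B proteins differed by small amounts. Of 9 measured Rel and I-kappa-B genes other than BCL3, a group formed after the values were seen, 1 rose and 1 fell, and they lay between -0.33 and 0.32. Of 34 measured NF-kB, I-kappa-B and IKK genes 6 rose and 4 fell, the latter counting BCL3 itself, beside 20.7% and 20.1% over all genes. With median scaling 11 rose and 4 fell, and with mean raw intensity as a covariate 7 rose and 5 fell. NFKB1, which encodes p50 and its precursor, rose by 0.32 (SE 0.07), and RELA, the activating subunit p65, fell by 0.33 (SE 0.07). NFKB2, which encodes p52 and its precursor, did not pass by any measured probe. NFKBIA, the classical inhibitor and a target of the pathway, read 10.29, 10.20 and 10.16 against 10.34, 10.29 and 10.22 (0.07, adjusted p = 0.424).

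The promoter of IL6 is shown because its NF-kB element is a textbook example. Capitals mark the only match, 73 bases before the start, in the 250 bases at chr7:22726950-22727199 (plus strand, GRCh38.p14, RefSeq). The motif was searched on both strands by its name, the kappa-B decamer.
IL6: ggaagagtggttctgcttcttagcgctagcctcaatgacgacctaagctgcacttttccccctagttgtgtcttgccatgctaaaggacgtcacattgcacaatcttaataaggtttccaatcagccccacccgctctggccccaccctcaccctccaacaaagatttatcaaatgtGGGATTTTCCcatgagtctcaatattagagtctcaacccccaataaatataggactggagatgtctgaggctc
The decamer lay in the promoter window of 1 of 7 fallen interleukin and chemokine genes with a sequence, in 5.61% of genes that fell at least 1.5-fold and in 6.47% of the genes tested.

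Several components of RNA interference rose. This machinery exports, cuts and loads small RNAs and is the one that siRNA itself uses. AGO2, the Argonaute protein that slices targets, read 7.69, 7.63 and 7.77 on the control arrays and 8.75, 8.61 and 8.37 on the BCL3 siRNA arrays (log2 fold change 0.88, SE 0.09). DICER1, which cuts hairpins, rose by 0.73 (SE 0.11), with 1.04 by a second probe. XPO5, which exports hairpins from the nucleus, read 6.32, 6.24 and 6.47 against 7.14, 7.02 and 7.04 (0.72, SE 0.07), and PRKRA, a partner of DICER1, rose by 0.50 (SE 0.09). Of 15 measured genes 5 rose, beside 20.7% over all genes, and 3 of these rose at least 1.5-fold. DROSHA, the nuclear processor of hairpins, read -0.17 (adjusted p = 0.132). All arrays came from cells transfected with siRNA, so the difference is between a control siRNA and the BCL3 siRNA.

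Of 42 measured genes of double-stranded RNA sensing and the interferon response 16 fell, 3 rose and 23 did not pass, beside 20.1% falls and 20.7% rises over all genes, with a median log2 fold change of -0.15. With median scaling 11 fell and 4 rose, and with mean raw intensity as a covariate 10 fell. TRIM5, above, led them. IFI44L, an interferon-induced gene, fell by 1.18 (SE 0.09), although its other probe read 0.03. PSMB9, a subunit of the immunoproteasome, fell by 0.66 (SE 0.07), with -0.02 by its other probe. ISG15, a ubiquitin-like modifier, read 9.52, 9.54 and 9.66 against 9.06, 9.25 and 9.04 (-0.45, SE 0.07). Probes of 1 gene thus differed in several members of this list.

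Genes that report and limit ERK signalling changed in both directions. The ERK cascade induces transcription factors and growth factors and, with them, inhibitors that feed back on it. Of 26 measured output and feedback genes 11 fell and 5 rose, beside 20.1% falls and 20.7% rises over all genes. With median scaling 9 fell and 7 rose. Among the inhibitors, DUSP5 read 8.04, 8.06 and 8.02 on the control arrays and 9.30, 9.25 and 9.25 on the BCL3 siRNA arrays. The sprouty SPRY1 also rose (0.82, SE 0.11), with a second probe at 0.26 that did not pass. Its relatives went the other way, SPRY4 by -0.93 (SE 0.08) and SPRED1 by -0.70 (SE 0.06). Of the outputs, the transcription factors EGR1 (-0.64, SE 0.07) and ETV5 (-0.56, SE 0.08) and the EGF receptor ligand HBEGF (-0.59, SE 0.06) fell.

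Protein phosphatase 2A held 1 large change, and the cap-binding machinery held several. PPP2CA, the main catalytic subunit of the phosphatase, read 11.49, 11.52 and 11.63 against 10.10, 10.09 and 10.01 (-1.48, SE 0.06), and its second probe read -1.91. PPP2CB, the gene for the near-identical second catalytic subunit, rose by 0.53 (SE 0.10) under DMSO and read -0.04 under TMZ, a difference that did not pass (adjusted p = 0.524). Of 22 measured subunits 4 fell and 2 rose, and with median scaling 2 fell and 4 rose. The shares over all genes, for this and the other lists of this paragraph, were 20.1% falls and 20.7% rises. In the list of the cap-binding complex and the mTOR pathway, 11 of 37 rose and 7 fell. EIF4E2, a cap-binding protein that represses translation, rose by 0.90 (SE 0.06), as did EIF4EBP2 above, and the helicase EIF4A1 fell by 0.85 (SE 0.05). Among 22 measured FOXO factors and targets 7 rose and 3 fell. Besides SESN1, a sestrin that restrains mTOR complex 1 (1.24, SE 0.07), they included FBXO32, an F-box protein of muscle atrophy (1.23, SE 0.09), and TXNIP, an inhibitor of thioredoxin and of glucose uptake (0.63, SE 0.07). Among 24 immunophilins FKBP1A and FKBP4, a co-chaperone of steroid receptors (-0.94, SE 0.07), were the only 2 that fell, and 6 rose, PPIF of the mitochondrial matrix among them (0.74, SE 0.10).

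HMOX1 rose within a list that was partly raised. NRF2 is a transcription factor of the oxidative stress response that KEAP1 holds back, and its targets handle haem, iron, glutathione and NADPH. Of 30 measured genes of haem, iron and NRF2 targets 11 rose and 4 fell, beside 20.7% rises and 20.1% falls over all genes. The list's median was 0.13. AKR1B10, an aldo-keto reductase, read 6.51, 6.60 and 6.48 against 7.40, 7.42 and 7.31 (0.85, SE 0.06). Transketolase TKT rose by 0.60 (SE 0.06) and PIR by 0.50 (SE 0.06). KEAP1 itself fell by 0.70 (SE 0.06), with -0.57 by a second probe. NQO1, a common marker of NRF2 activity, read 11.43, 11.59 and 11.48 against 11.58, 11.57 and 11.70 (0.12, adjusted p = 0.176). The ferritin light chain FTL read -0.08 (adjusted p = 0.395).

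Enzymes of glycolysis held a few large falls, and those of serine synthesis held 1. The phosphoglycerate mutase PGAM1 read 11.69, 11.66 and 11.69 against 10.37, 10.47 and 10.37 (-1.28, SE 0.06), and its second probe read -1.16. PDK3, an inhibitor of pyruvate dehydrogenase, fell by 1.00 (SE 0.07), with -0.06 by its other probe, and PSAT1 of serine synthesis fell by 0.94 (SE 0.06). GAPDH read 0.01 (adjusted p = 0.923), with 0.02 and 0.23 by its other probes, the last past the threshold (adjusted p = 0.0371 over probes). Of 27 genes of glycolysis and lactate 7 fell and 2 rose, beside 20.1% falls and 20.7% rises over all genes. Median scaling turned the counts to 5 and 12, so the direction of the list depended on the scaling. PGAM1, PDK3 and GLO1 fell under both scalings. Of 17 measured genes of serine, glycine and one-carbon synthesis 5 fell and 3 rose, beside the same shares over all genes. Only PSAT1 fell at least 1.5-fold, and with median scaling 3 of the list fell and 5 rose.

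Of 39 measured collagens and matrix glycoproteins 11 rose and 12 fell, beside 20.7% rises and 20.1% falls over all genes. With median scaling 17 rose and 11 fell. CCN1, a matricellular protein, rose by 0.86 (SE 0.07), the collagen chain COL5A1 by 0.80 (SE 0.06), COL1A2 by 0.50 or 2.56 depending on the probe, and SPARC, which binds collagen, by 0.71 (SE 0.06). LUM, the proteoglycan lumican, read 6.53, 6.37 and 6.42 against 5.08, 5.10 and 5.31 (-1.27, SE 0.08), and the collagen chain COL12A1 fell by 0.98 (SE 0.08). The fibronectin receptor chain ITGA5 rose by 0.86 (SE 0.06). In the integrin list, to which it belongs, 2 of 17 measured genes rose and 4 fell, beside the same shares over all genes. With median scaling 3 of that list rose and 2 fell. Of 17 measured genes of coagulation and the plasminogen system 4 rose and 3 fell, near the 20.7% and 20.1% over all genes. Next to F3, its inhibitor TFPI rose by 0.33 (SE 0.07). PLAU, the urokinase that activates plasminogen, read 12.78, 12.75 and 12.75 against 11.60, 11.55 and 11.45 (-1.23, SE 0.07). The cross-linking enzyme TGM2 fell by 0.90 (SE 0.06), while 2 dimmer probes read -0.17 and -0.45 and did not pass.

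Markers of the line and of other cells were checked on the same arrays. Of 20 markers of glioma and mesenchymal lines 15 were measured and 12 were detected on all 6 arrays, while GFAP, S100B, SOX2 and THY1 did not pass the detection filter. Their summed linear level was 68500 to 71200 on the control arrays and 64500 to 67400 on the BCL3 siRNA arrays. Of 15 leukocyte markers 6 were measured and 2 were detected on all 6 arrays, with a sum of 2210 to 2450 against 1950 to 2010. PTPRC, CD3E and ITGAM did not pass. Of 10 endothelial and pericyte markers TEK alone was measured, with 44.3 to 56.3 against 26.7 to 30.2, and it fell by 0.57. Neuron and oligodendrocyte markers gave 3 measured of 13, with 1 detected on all 6 arrays, at 242 to 266 against 167 to 186. Epithelial markers gave 2 of 10, at 41.7 to 51.4 against 36.1 to 45.4. All but the epithelial sum lay apart between the groups, lower on the BCL3 siRNA arrays, and their part in the results was not tested. In the glioma list 1 of the 15 genes rose and 5 fell with quantile normalization, beside 20.7% rises and 20.1% falls over all genes. With median scaling 6 rose and 4 fell, beside 3141 rises and 1673 falls among all 10686 genes. In RNA from whole cultures, fewer cells of a kind and less RNA per cell cannot be told apart.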

How the data were processed

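RNA from each sample was amplified to biotin-labelled cRNA and hybridised to 12 Illumina bead arrays, per the labels' protocols. The authors deposited bead-averaged probe intensities that were neither background-subtracted nor normalized (72.8 to 20797.5 on a linear scale) with detection p-values per probe, per the file headers. They also deposited processed intensities, background-subtracted and quantile-normalized as judged from the values. The software is not given in the sources used here. Since no header ties a detection column to its sample, every such column was assigned to the array whose brightness ordering it mirrored best.

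In R 4.3.3, neqc of limma 3.58.1 corrected the raw intensities (background level estimated through the detection p-values, offset 16), quantile-normalized them and took log2. The filter kept probes whose detection p-value was under 0.01 on 3 or more arrays. Symbols came from the platform annotation: 30112 probes had 1 symbol and 8 several, and of the kept probes 3835 had none. A group-means model over all 12 arrays, with 8 residual degrees of freedom, was fitted with lmFit and eBayes, with 2-sided p-values. Tested on simulated data for the same contrast over 10686 genes, it recovered 91 of 100 changes of 0.5 and 100 of 100 of 1 log2 unit, with 8 false calls. In the data 40.8% of genes were called, with a median size of 0.35, so these rates do not carry over to the calls. The number of arrays limits the precision.

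The members and the gene lists were chosen with earlier results of these data known. The rule named BCL3, the 25 largest non-overlapping rises and falls, up to 8 called and 4 uncalled members of each list, the 5 genes with the lowest p-value for the difference between treatments, and their other probes. MCM2 to MCM5, POLE3, COL1A2, PCNA, DROSHA, NFKB2 and RNA28SN5 fell outside it and were named after their values were seen. Where a gene had several promoters, the first listed was used. No 2 arrays held identical values. Alternatives changed the background correction, the offset, the scaling, the detection filter, the handling of several probes, the arrays in the fit, the moderation and a covariate of array brightness, used the authors' intensities or a replicate block, or left out 1 array.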

Additional observations from a re-analysis of the deposited data

Results flagged for a closer look

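Probes without a gene symbol, which entered none of the gene comparisons, also differed between the siRNAs under DMSO. Of 3835 such probes that passed the detection filter, 635 were higher and 458 lower with BCL3 siRNA, 1093 in all, or 28.5%. Among the named probes, each tested on its own, the share was 36.7%. No control exists for such probes beyond the control siRNA arrays, and their genes were not looked for.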

How the results depend on the processing

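BCL3 kept its fall under every alternative run, between -1.04 and -0.93 on the log2 scale when each of the 6 DMSO arrays was left out in turn. Counts of all called genes moved by over 1.5 times in 3 settings (counts at 2-fold are given with their result): median scaling over all probes, added after the data were seen, gave 244 rises and 4758 falls, mean raw intensity as a covariate 1128 and 1282, and a minimum of 1.5-fold change 246 and 408. Leaving out 1 array gave 1791 to 2026 rises and 1819 to 1980 falls. With the replicate number as a block 2148 genes rose and 2088 fell. The numbers did not pair the arrays (correlations of deviations between same-numbered arrays 0.127, -0.033 and 0.123), and not every array correlated best with its own number. The difference between TMZ and DMSO, called for 0 genes, was called for 1 with normexp and an offset of 50, 1 with no background correction, 1 with an offset of 50, 1 with trend and robust moderation, 3 with the authors' intensities and 11 with median scaling over all probes (ADI1, PTGES3 and CSF3 among them), and for 0 to 1 when an array was left out. PTGES3 was the gene in the first 4 and without control siRNA replicate 3, and ADI1 was among the 3. Among named genes that had not passed, the sign turned for FTL (0.14), BUB3 (0.12), MCM7 (0.054) and PCNA (0.016) with median scaling. With each array left out in turn PCNA ran from -0.095 to 0.012, GAPDH from -0.005545 to 0.020, BUB3 from -0.052 to 0.012 and ADI1 from -0.002259 to 0.077. The number of arrays and the offset limit what can be seen in dim probes.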

Other observations

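Histone genes whose transcripts were detected held rises. Of 18 measured histone genes 8 rose and 3 fell, beside 20.7% rises and 20.1% falls over all genes. The list's median log2 fold change was 0.10. Of 7 canonical H2A and H2B genes, a group formed after the values were seen, 6 rose. H2BC5 read 5.08, 4.86 and 4.97 on the control arrays and 6.34, 6.08 and 6.31 on the BCL3 siRNA arrays (1.27, SE 0.09, n = 3 per group, limma), with 0.55 by a second probe. H2BC12 rose by 0.90 (SE 0.09), with 0.54 by a second probe, and H2AC6 by 0.78 (SE 0.09). Canonical histone transcripts mostly lack a poly(A) tail, and genes of this family are near-identical copies, so a probe may read several of them.

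Genes of the BCL2 family, which control release of cytochrome c from mitochondria, included 5 that rose and 3 that fell of 16 measured, beside 20.7% and 20.1% over all genes. With mean raw intensity as a covariate 1 rose and 3 fell. BAX, a pore-forming member, read 7.36, 8.44 and 8.16 on the control arrays and 8.98, 9.08 and 8.79 on the BCL3 siRNA arrays (0.96, SE 0.21, adjusted p = 0.0031 by limma). Its call was lost with mean raw intensity as a covariate (0.93, adjusted p = 0.0544), and under TMZ it read 0.31 (adjusted p = 0.277), a difference between treatments that did not pass (adjusted p = 0.733). The survival gene BCL2L1 fell by 0.43 (SE 0.08), with -0.92 by a second probe. BCL2 was detected on all 3 control arrays and on none of the BCL3 siRNA arrays, where it was at least 1.35-fold lower (adjusted p = 0.00187), a call lost with the authors' intensities (log2 fold change -0.44, adjusted p = 0.0572).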
